A study of Homo sapiens with 12 samples.

Results

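The 143 genes described here carry ZNF symbols with 3 digits, a set of zinc finger genes that were measured in HT-29, a human colon adenocarcinoma cell line, after 8 h of treatment. They were chosen by their names and by their level: of 26485 genes listed, 430 have a symbol of ZNF followed by 3 digits, and the members are those whose deposited group means averaged at least 100 over the 4 groups. Another 143 such genes averaged 10 to under 100, and 144 averaged under 10. The groups were TSZ+Nec-1s (TNFα at 10 ng/ml, the Smac mimetic SM-164 at 50 nM, the pan-caspase inhibitor zVAD at 20 µM and the RIPK1 kinase inhibitor Nec-1s at 10 µM), TSZ (the same without Nec-1s), TNFα alone at 10 ng/ml, and DMSO, with 3 polyA libraries each. When caspases are inhibited, TNFα with a Smac mimetic can kill such cells by necroptosis, in which the kinase RIPK3 activates the membrane-rupturing protein MLKL, and Nec-1s acts upstream on RIPK1. All values come from 1 cell line, and no label ties the 3 libraries of each treatment to different cultures or days. Every p-value therefore rests on a spread between libraries that may be technical. In such bulk samples fewer living cells and less RNA per cell cannot be told apart.

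Zinc fingers of the C2H2 kind are short folds held by a zinc ion, and proteins with several of them in a row bind DNA, and sometimes RNA, by sequence. The largest family in humans joins such an array to a KRAB box, which recruits TRIM28 and through it the histone methyltransferase SETDB1, so that most of these proteins silence transposable elements and other targets. Others carry a SCAN box, through which they pair, or neither box, and this remainder includes activators, parts of chromatin complexes and RNA-binding proteins. Many KRAB genes lie in clusters on chromosome 19.

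Of the 143 members, 57 had a KRAB box by a profile search of their translated GENCODE transcript, 11 had a SCAN box, 5 had both and 80 had neither. Members lay on 20 chromosomes, 46 of them on chromosome 19, including 30 with a KRAB box. They held a median of 8 C2H2 fingers, between 0 and 40. KRAB members held a median of 10 fingers against 7 in the others, and their transcripts had a median GC content of 44.9% against 52.0%. The median member averaged 238 normalised reads, and KRAB members (median 156) averaged fewer than members without the box (median 345). The highest normalised read counts, not adjusted for length, were those of ZNF207, ZNF664 and ZNF609. Per kilobase of transcript, ZNF593 was highest at 961 normalised reads. By GENCODE, 56.9% of its exon bases lie in exons of its antisense partner ZNF593OS, and the counting ignored strand. Whether this overlap raised or lowered its count was not tested.

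The level that chose the members is a description. Just inside the threshold were ZNF419 (mean 100.7), ZNF500 (101.0) and ZNF440 (101.3), and just outside were ZNF845 (99.8), ZNF219 (97.2) and ZNF600 (96.5). All 143 members passed the lower filter of the test, a mean of 10, and 110 had all 4 group means at or above 100. The other 33 entered with a lower mean in at least 1 group. A gene could therefore enter through the groups where it was high. ZNF165 had 1 group mean of at least 100, that of TSZ (63.6 in TSZ+Nec-1s, 271.5 in TSZ, 48.5 in TNFα and 39.8 in DMSO libraries), and ZNF267 and ZNF503 had 2 each. ZNF697 reached 100 in every group but DMSO. Among the 137 members with a DMSO mean of at least 100, a choice that in turn leaves out genes low in DMSO libraries, 31 were higher and 42 lower with TSZ against DMSO, 4 higher and 3 lower with TSZ+Nec-1s against DMSO, and 0 higher and 1 lower with TNFα against DMSO. The counts over all members given below are 35 and 42, 7 and 3, and 2 and 1. Over all genes tested, without such a floor, 26% were higher and 24.2% lower with TSZ against DMSO. The shares were 7.17% and 5.74% with TSZ+Nec-1s against DMSO, and 3.13% and 1.08% with TNFα against DMSO. Shares of all genes with a DMSO mean of at least 100 are not given here.

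Reads per library were estimated at 8781228 to 12731837, and the members' summed normalised reads ranged from 51857 to 59748. Libraries of a group carry the letters a, b and c here, which do not correspond to the replicate numbers of the labels. In DMSO b the members summed to 57925 normalised reads, against 51857 and 52136 in the other DMSO libraries. Deviations of a library from its group mean followed GC content over 11463 genes, which is a description across genes and balances within a group by construction. Spearman's rho was -0.15, 0.23 and -0.09 in TSZ+Nec-1s a, b and c, -0.75, 0.55 and 0.60 in TSZ, -0.61, 0.48 and 0.22 in TNFα, and 0.54, -0.81 and 0.78 in DMSO libraries. DMSO b and DMSO c thus lay at opposite ends. The median coefficient of variation of members was 6.78% in TSZ+Nec-1s, 15.1% in TSZ, 9.98% in TNFα and 15.7% in DMSO libraries. Of the epithelial markers, 8 of 14 could be tested, EPCAM and CDH1 among them. KRT8 and KRT18 were too high for their reads to be solved, whereas the intestinal genes CDX1, CDX2, CDH17 and GPA33 averaged between 0 and 6.77 normalised reads in every group. Of 5 leukocyte markers, PTPRC and CD3E were at 0 in every library, and the 2 tested, CD68 and LYZ, were higher with TSZ than with DMSO. Summed markers of fibroblasts and endothelium ranged from 42.7 to 59.9 normalised reads in TSZ+Nec-1s, 211 to 488 in TSZ, 47.2 to 63.1 in TNFα and 51.3 to 194 in DMSO libraries. The part of these markers in the results below was not tested.

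Before the values, the promoters of 4 members are shown, chosen after their values were seen, because these genes moved in different directions. Each runs 300 bases, from 250 before to 50 after the transcription start, 5′ to 3′ on the gene's strand, from RefSeq on GRCh38.p14. ZNF697 (chr1:119648217-119648516, minus strand), ZNF143 (chr11:9460762-9461061, plus strand) and ZNF267 (chr16:31873557-31873856, plus strand) rose with TSZ, and ZNF318 (chr6:43369598-43369897, minus strand) fell. Capitals mark matches to 7 motifs searched on both strands, which were TGANTCA for AP-1, GGGANNNCC for NF-κB, TGACGTCA for the cyclic AMP response element (CRE), TATAAA for the core promoter box of that spelling, CCGGAAG for ETS factors, AAGATGGC for YY1 and ACTACANNT for ZNF143, where N is any base. In these 4 promoters no match overlapped another.
ZNF697: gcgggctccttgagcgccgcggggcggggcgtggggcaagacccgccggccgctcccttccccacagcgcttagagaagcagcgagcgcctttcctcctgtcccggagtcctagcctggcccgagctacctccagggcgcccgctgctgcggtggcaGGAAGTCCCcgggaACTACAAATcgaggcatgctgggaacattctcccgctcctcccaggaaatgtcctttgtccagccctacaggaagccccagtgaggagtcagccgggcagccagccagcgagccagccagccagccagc
ZNF143: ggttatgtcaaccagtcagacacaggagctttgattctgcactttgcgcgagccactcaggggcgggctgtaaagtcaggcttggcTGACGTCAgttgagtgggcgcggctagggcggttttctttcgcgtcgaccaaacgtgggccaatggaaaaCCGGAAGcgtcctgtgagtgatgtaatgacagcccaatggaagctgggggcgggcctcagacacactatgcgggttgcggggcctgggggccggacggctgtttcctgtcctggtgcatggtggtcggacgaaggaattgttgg
ZNF267: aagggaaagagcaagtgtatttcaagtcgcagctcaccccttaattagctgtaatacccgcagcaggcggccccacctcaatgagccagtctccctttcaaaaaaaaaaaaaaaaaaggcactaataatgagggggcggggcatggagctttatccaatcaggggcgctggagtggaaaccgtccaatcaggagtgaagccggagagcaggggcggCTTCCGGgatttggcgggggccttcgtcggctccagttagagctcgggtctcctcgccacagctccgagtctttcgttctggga
ZNF318: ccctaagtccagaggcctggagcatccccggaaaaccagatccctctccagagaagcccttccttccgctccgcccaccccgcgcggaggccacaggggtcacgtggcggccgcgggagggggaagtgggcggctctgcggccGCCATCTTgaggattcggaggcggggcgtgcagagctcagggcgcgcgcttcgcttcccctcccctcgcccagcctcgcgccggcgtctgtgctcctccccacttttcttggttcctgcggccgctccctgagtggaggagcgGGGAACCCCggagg

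ZNF697 held an NF-κB match on the minus strand and a ZNF143 match, ZNF143 held a CRE and an ETS match, ZNF267 held an ETS match on the minus strand, and ZNF318 held a YY1 match on the minus strand and an NF-κB match. Promoters were at hand for 123 of the 143 members, and 51 of these genes (41.5%) held the ETS letters, against 23.3% of 8904 tested genes with a promoter and 12.2% of all 27305 genes in the promoter set. Among KRAB members the share was 54% (27 of 50). The NF-κB letters were in 33.3% of members and 33.7% of tested genes, the AP-1 letters in 7.32% and 7.23%, and the CRE letters in 7.32% and 3.9%. Among members higher with TSZ than with DMSO, 13 of 30 held the ETS letters (43.3%), and among members lower with TSZ, 12 of 33 (36.4%). The ZNF143 letters were added to the search after promoters had been read. They were in 8.94% of members and 6.36% of tested genes. A match is a description of letters, not of binding.

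The first question was which members change with TSZ, the treatment that can start necroptosis. TSZ joins TNFα, SM-164 and zVAD, and no group had SM-164 or zVAD without TNFα. Effects of these agents and of necroptosis therefore cannot be told apart in this comparison. With TSZ against DMSO, 35 members were higher and 42 lower, taking an adjusted p below 0.05 (limma-voom with Benjamini-Hochberg adjustment over 11736 genes), or 24.5% and 29.4% of members. Over all genes tested, 26% were higher and 24.2% lower, so the share of members that changed was close to the background. The median member fell by 0.07 on the log2 scale, and the median of all genes fell by 0.02. The members ranged from -2.37 to 3.55. Of the 77 calls, 58 were kept in every fit that left out 1 library. Scaling to total reads instead lowered the median of all genes to -0.43 in this comparison, and the split of members became 20 higher and 77 lower (of all genes, 14.1% higher and 48.4% lower), so directions below are relative to the middle of all genes. Epithelial markers moved in the same comparison: 7 of the 8 tested were higher with TSZ and none lower. Summed over the 12 listed markers with solved reads, normalised reads ranged from 40415 to 42160 in TSZ libraries and from 20906 to 24099 in DMSO libraries. The part of these markers in the members' counts was not tested.

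**Figure D1:**
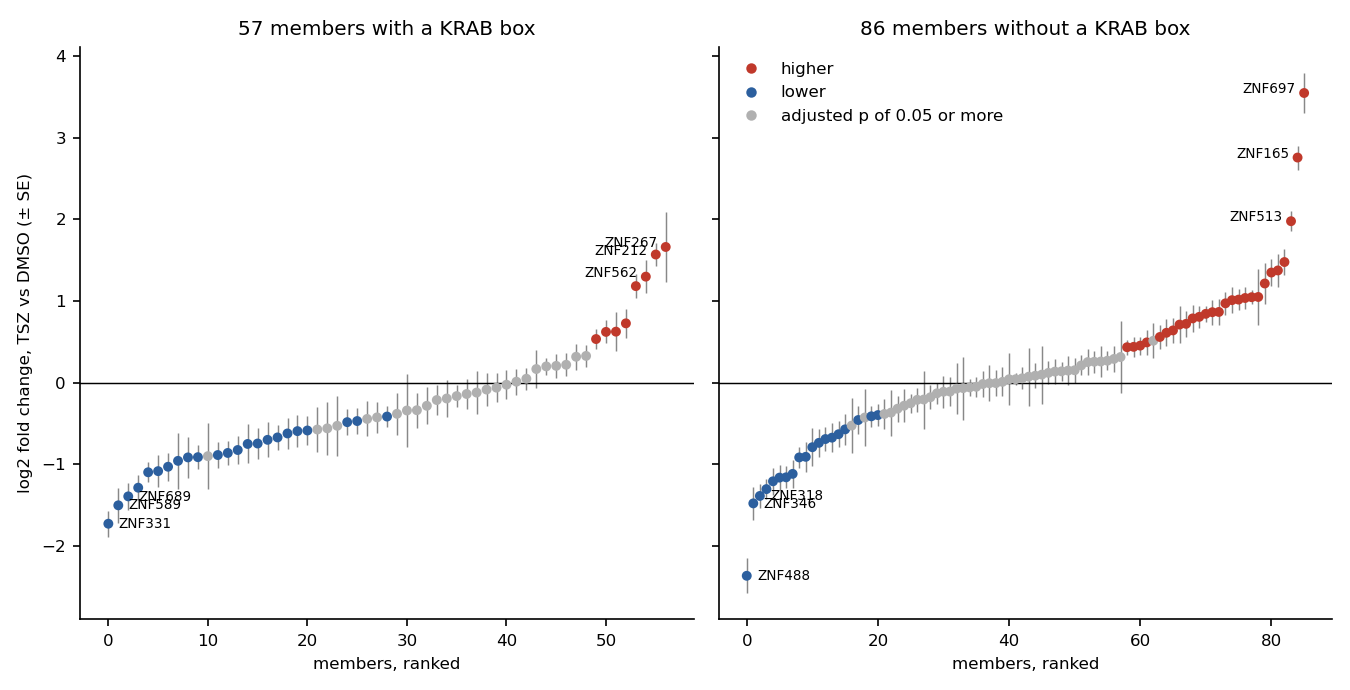
Log2 fold change of each member with TSZ against DMSO (y axis, ± SE), ranked along the x axis, for 57 members with a KRAB box (left) and 86 without (right), with the 3 at each end named where there was room. Red points were higher and blue points lower at an adjusted p under 0.05; 23 KRAB members were lower and 8 higher, against 19 lower and 27 higher among the others.

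ZNF697 (chr1:119619377-119648266, minus strand, hg38) rose the most. It had 551, 400 and 411 normalised reads in TSZ libraries, against 26.1, 59.9 and 36.3 in DMSO libraries (log2 fold change 3.55 ± 0.25 SE, adjusted p = 9.9e-08, n = 3 each, limma). Every TSZ library was above every DMSO library, and TNFα libraries (127, 115 and 114) lay between them. The gene encodes 11 fingers and no KRAB box. It averaged under 100 in DMSO libraries and became a member through its treated groups. Its rise is therefore a description of that gene and no support for a rise of the members. ZNF165 (chr6:28080568-28089563, plus strand), a SCAN gene known as a cancer-testis antigen, had 278, 273 and 263 normalised reads in TSZ libraries, against 37.8, 39.9 and 41.7 in DMSO libraries (2.76 ± 0.15, adjusted p = 7.5e-09). It is a member only through its high level in TSZ libraries, so its values are a description of that gene and no support for a rise of the members. Of its exon bases, 17.7% lie in exons of another gene. ZNF513 (chr2:27377235-27380790, minus strand), mutated in a form of retinitis pigmentosa, had 561, 633 and 621 in TSZ libraries, against 167, 127 and 167 in DMSO libraries (1.98 ± 0.13, adjusted p = 4.2e-08). Neither gene's groups overlapped.

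**Figure D2:**
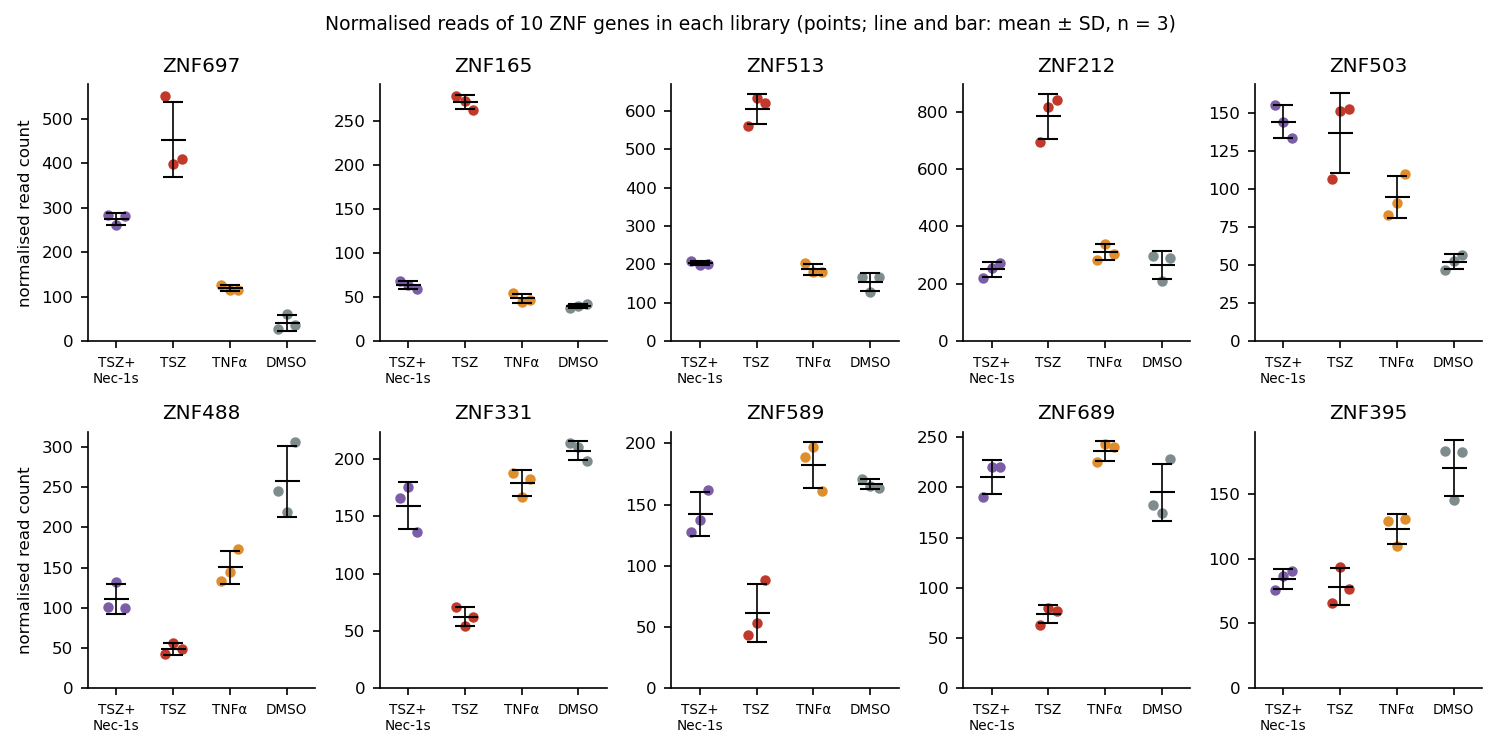
Normalised read count (y axis) of 10 members in each of 12 libraries, by group (TSZ+Nec-1s, TSZ, TNFα, DMSO), with points for libraries and a line with bars for mean ± SD (n = 3). ZNF697 averaged 275 in TSZ+Nec-1s, 454 in TSZ, 119 in TNFα and 40.8 in DMSO libraries, and ZNF488 averaged 111, 49.1, 150 and 257 in the same order.

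Next came ZNF267 (1.66 ± 0.42), ZNF212 (1.57 ± 0.15) and ZNF628 (1.48 ± 0.16). ZNF212, a KRAB gene, had 693, 817 and 840 normalised reads in TSZ libraries, against 297, 209 and 289 in DMSO libraries. ZNF267, also a KRAB gene, was uneven. Its TSZ libraries had 488, 186 and 214 normalised reads and its DMSO libraries 66.6, 179 and 52.4, with the high values in TSZ a and DMSO b, whose deviations fell with GC content.

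Members with described roles outside KRAB silencing were among the genes that rose. ZNF143, an activator of small nuclear RNA and many other genes, had 638, 536 and 538 normalised reads in TSZ libraries, against 263, 320 and 265 in DMSO libraries (1.02 ± 0.13, adjusted p = 2.2e-05). ZNF335, a part of a histone H3K4 methyltransferase complex mutated in a microcephaly, averaged 1530 ± 253 in TSZ and 743 ± 109 in DMSO libraries (SD, n = 3 each), a difference of 1.04 ± 0.14. ZNF217, an oncogene amplified with 20q13, averaged 813 ± 20.1 in TSZ and 478 ± 100 in DMSO libraries (0.79 ± 0.16). ZNF281, a repressor also called ZBP-99, averaged 505 ± 167 and 221 ± 85.8 (1.21 ± 0.26). ZNF609, which in mouse works with the Integrator complex, averaged 2682 ± 277 and 1490 ± 42.4 (0.84 ± 0.09). ZNF516, which in mouse drives brown fat genes, averaged 313 ± 32.3 and 159 ± 12.2 (0.97 ± 0.14). The log2 differences of these 6 genes lay between 0.79 and 1.21, and in none did a TSZ library fall below a DMSO library.

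Rises also came from ZNF598, the ubiquitin ligase that marks collided ribosomes (0.56 ± 0.15), ZNF830, a pre-mRNA processing factor in mouse (0.43 ± 0.09), and ZNF706, which in mouse stem cells represses Klf4 (1.05 ± 0.09). ZNF292, a neurodevelopmental disorder gene, rose by 1.05 ± 0.35, but DMSO b (390) was above TSZ c (307), and the call was lost without DMSO a, DMSO c or TSZ a (0.67 to 1.51 and adjusted p up to 0.098 over all fits without 1 library).

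Other members with described roles did not pass the test between TSZ and DMSO. ZNF207, the mitotic BUB3 partner BuGZ, averaged 3363 ± 132 in TSZ and 3270 ± 148 in DMSO libraries (0.04 ± 0.07, adjusted p = 0.67). ZNF622 (0.14 ± 0.12) and ZNF593 (0.26 ± 0.19), whose yeast relatives act in maturing the large ribosomal subunit, and ZNF326 (-0.01 ± 0.22), a part of the DBIRD splicing complex, did not pass either. The same held for ZNF384, known from leukaemia fusions (-0.13 ± 0.13), and for ZNF687 (0.12 ± 0.14) and ZNF592 (0.27 ± 0.12), which bind together in a complex with ZMYND8. ZNF410, an activator of CHD4, was at 0.21 ± 0.12, but 97.8% of its exon bases lie in exons of other annotated genes. The remaining members of the characterised list that did not pass were ZNF146, ZNF148, ZNF263, ZNF451, ZNF638, ZNF644, ZNF655, ZNF668, ZNF692, ZNF703 and ZNF768, with values from -0.43 to 0.29. An adjusted p above 0.05 does not show that a level stayed the same.

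ZNF488 (chr10:47365496-47384293, minus strand) fell the most. It had 42.2, 56.4 and 48.8 normalised reads in TSZ libraries, against 246, 220 and 306 in DMSO libraries (-2.37 ± 0.21, adjusted p = 1.2e-06). In mouse this gene acts with Olig2 in oligodendrocyte formation. Its TSZ libraries were also below all TSZ+Nec-1s and TNFα libraries. ZNF331 (chr19:53519527-53580269, plus strand), an imprinted KRAB gene, had 71.0, 54.2 and 61.9 in TSZ libraries, against 213, 210 and 198 in DMSO libraries (-1.73 ± 0.16, adjusted p = 1.7e-06). ZNF589, a KRAB gene first described in blood stem cells, had 43.3, 53.0 and 88.1 in TSZ libraries, against 171, 165 and 164 in DMSO libraries (-1.51 ± 0.22). In neither did the groups overlap. ZNF488, ZNF331 and ZNF589 averaged under 100 in TSZ libraries and became members through other groups. Their falls are therefore descriptions of these genes and no support for a fall of the members.

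ZNF346, which binds double-stranded RNA, fell by 1.48 ± 0.20 on the log2 scale, the KRAB gene ZNF689 by 1.40 ± 0.16 and ZNF318, which in mouse controls IgD splicing, by 1.39 ± 0.15. ZNF318 had 111, 133 and 151 normalised reads in TSZ libraries, against 326, 402 and 309 in DMSO libraries. ZNF275, on chromosome X, averaged 112 ± 10.5 in TSZ and 278 ± 11.2 in DMSO libraries (-1.31 ± 0.12). ZNF827, which binds the NuRD complex at telomeres, averaged 124 ± 21.9 and 284 ± 24.7 (-1.21 ± 0.17). ZNF395, a gene induced by hypoxia, averaged 78.4 ± 14.2 and 170 ± 21.5 (-1.12 ± 0.17). In each of these 6 genes every TSZ library was below every DMSO library. ZNF689 and ZNF395 averaged under 100 in TSZ libraries and became members through other groups, so their falls too are descriptions. Over the 143 members, 40 lay wholly below and 33 wholly above the DMSO libraries. The share of all genes without overlap is not given here, so these counts are no result about the members. Several named genes were picked for large changes, so their lack of overlap adds no support.

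Members with and without a KRAB box differed in their counts. With TSZ against DMSO, 23 KRAB members were lower and 8 higher (median -0.42), whereas among the 86 members without the box 19 were lower and 27 higher (median 0.06). No test of this difference was made, and it is not given without members that had a group mean under 100. Over all genes tested, 24.2% were lower and 26% higher. The same split among KRAB members at other loci was 12 lower and 5 higher off chromosome 19 and 11 lower and 3 higher on it, so it was seen in both places. The 16 members on chromosome 19 without the box counted 2 lower and 9 higher. Of another 158 tested genes with a KRAB box, 66 were lower and 3 higher (median -0.75). KRAB transcripts are poorer in GC. With each library's GC trend removed, 28 KRAB members were lower and 13 higher (median -0.34; of all genes, 31.5% lower and 34.4% higher), and without DMSO b, TNFα a and TSZ a, a choice made after seeing the data, 26 were lower and 12 higher (median -0.35; of all genes, 28.7% lower and 32.6% higher). Within members below the median GC content of 47.9%, KRAB members had 13 lower and 5 higher, and the others 8 lower and 8 higher. Under scaling to total reads, 39 KRAB members were lower and 4 higher, and members without the box had 38 lower and 16 higher. Of all genes, 48.4% were lower and 14.1% higher under that scaling.

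**Figure D3:**
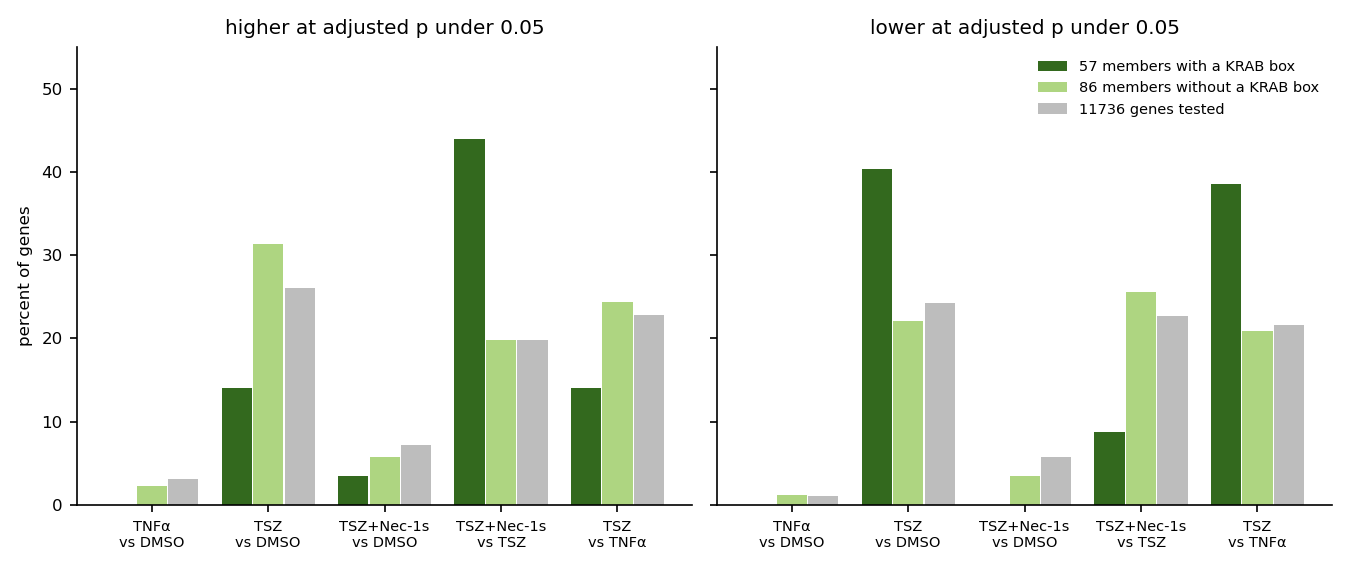
Percent of genes (y axis) higher (left) or lower (right) at an adjusted p under 0.05 in each of 5 comparisons, for 57 KRAB members, 86 members without the box and 11736 genes tested. With TSZ against DMSO, 40.4% of KRAB members and 22.1% of the others were lower, against 24.2% of all genes.

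SCAN members moved both ways. ZNF165 (2.76) and ZNF394 (1.01) rose, and ZNF215 (-0.96), ZNF232 (-0.91), ZNF500 (-0.79), ZNF445 (-0.67), ZNF213 (-0.59) and ZNF202 (-0.42) fell, whereas ZNF263, ZNF444 and ZNF496 did not pass the test. ZNF232, ZNF394, ZNF445, ZNF213, ZNF202, ZNF444 and ZNF496 are named to complete this group, not by the rule for named genes. For ZNF500 the groups overlapped, with DMSO b at 78.8 normalised reads against 79.0 in TSZ b, and its call was lost without DMSO a or TSZ c (adjusted p up to 0.053). The call of ZNF215 was lost without DMSO b or TSZ b (-1.24 to -0.57 over all fits without 1 library, adjusted p up to 0.16).

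The second question was what blocking RIPK1 changes in TSZ-treated cells. With TSZ+Nec-1s against TSZ, 42 members were higher and 27 lower, or 29.4% and 18.9% of members, against 19.8% higher and 22.7% lower of all genes. The median member was at 0.16 and the median gene at 0.02. Of the 69 calls, 44 were kept in every fit that left out 1 library, and with scaling to total reads, which moved the median of all genes to 0.35, the split became 80 higher and 12 lower (of all genes, 42.1% higher and 11.8% lower). This comparison uses the same TSZ libraries as the last one, so the values are set side by side and not counted as further evidence.

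ZNF689 rose the most with Nec-1s, to 191, 220 and 220 normalised reads in TSZ+Nec-1s libraries, against 63.2, 80.1 and 77.4 in TSZ libraries (1.51 ± 0.16, adjusted p = 9.7e-06). ZNF331 had 166, 175 and 136, against 71.0, 54.2 and 61.9 (1.35 ± 0.16), and ZNF589 had 127, 137 and 162, against 43.3, 53.0 and 88.1 (1.26 ± 0.22). ZNF215, a KRAB and SCAN gene, averaged 170 ± 4.39 in TSZ+Nec-1s and 74.3 ± 29.4 in TSZ libraries (1.28 ± 0.33). ZNF275 was at 1.19 ± 0.12 and ZNF488 at 1.16 ± 0.22. In these 6 genes all TSZ+Nec-1s libraries were above all TSZ libraries. They were picked for the largest rises, so this adds no support. All but ZNF275 averaged under 100 in TSZ libraries and became members through other groups. Over the 143 members, 56 lay wholly above and 34 wholly below the TSZ libraries. These counts have no share of all genes beside them and are no result about the members.

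Genes that fell with Nec-1s were led by ZNF165, which had 68.0, 63.4 and 59.4 normalised reads in TSZ+Nec-1s libraries, against 278, 273 and 263 in TSZ libraries (-2.08 ± 0.13, adjusted p = 4.7e-08), the group through which it became a member. ZNF212 had 221, 254 and 274, against 693, 817 and 840 (-1.65 ± 0.14), and ZNF513 had 210, 200 and 202, against 561, 633 and 621 (-1.57 ± 0.12). ZNF628 (-1.11 ± 0.15), ZNF143 (-1.07 ± 0.12) and ZNF335 (-1.04 ± 0.14) followed. None of these groups overlapped, but these genes were picked for the largest falls, so this adds no support.

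ZNF697 and ZNF503 stood differently with the inhibitor. ZNF697 had 284, 260 and 282 normalised reads in TSZ+Nec-1s libraries, against 551, 400 and 411 in TSZ libraries, a fall of -0.71 ± 0.16 (adjusted p = 0.004), and against DMSO libraries it was still higher by 2.84 ± 0.25. ZNF503, a NET family corepressor, had 155, 144 and 134 in TSZ+Nec-1s libraries, against 106, 151 and 152 in TSZ libraries, and these overlapped (0.10 ± 0.16, adjusted p = 0.65). ZNF395 had 75.9, 86.8 and 90.5 in TSZ+Nec-1s libraries, against 65.5, 93.7 and 76.2 in TSZ libraries, which also overlapped (0.11 ± 0.18). ZNF638, the DNA-binding partner of the HUSH silencing complex, averaged 1089 ± 97.4 in TSZ+Nec-1s and 606 ± 294 in TSZ libraries (0.94 ± 0.34, adjusted p = 0.043), a call that was lost in 8 of the 12 fits that left out 1 library (adjusted p up to 0.16), all but those without DMSO b, DMSO c, TNFα a and TSZ a. Among KRAB members 25 were higher and 5 lower with TSZ+Nec-1s against TSZ (43.9% and 8.77%, median 0.45). Among the others 17 were higher and 22 lower (19.8% and 25.6%, median 0.08), close to the 19.8% and 22.7% of all genes. With scaling to total reads the others turned to 44 higher and 10 lower (51.2% and 11.6%), against 42.1% and 11.8% of all genes.

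**Figure D4:**
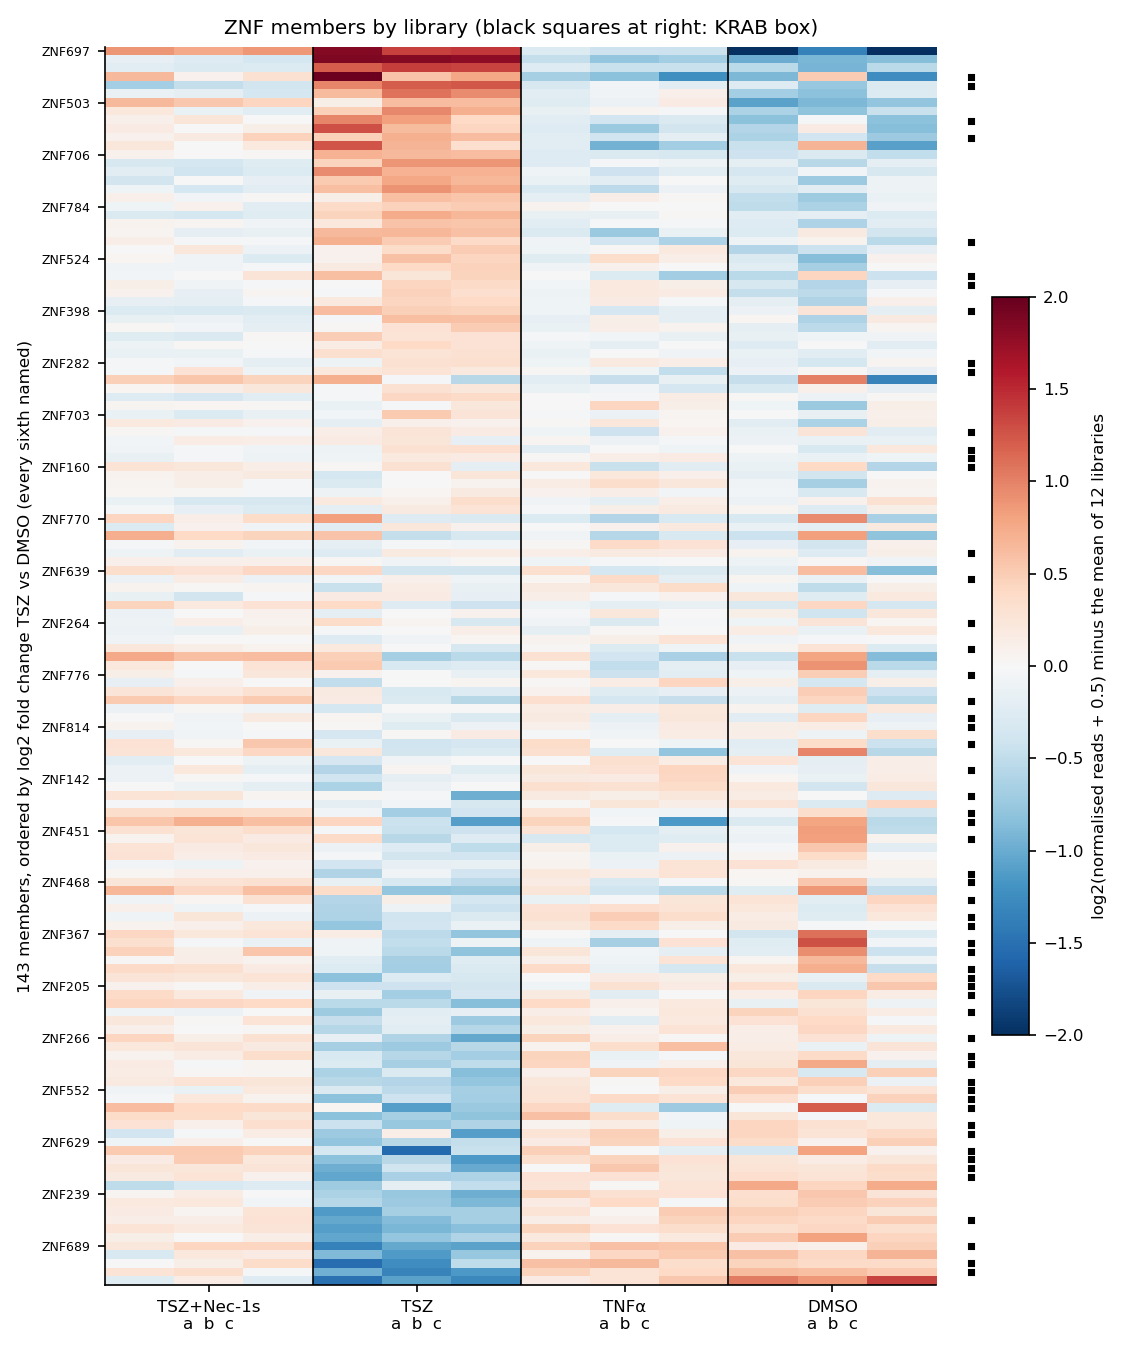
Each row is 1 of 143 members, ordered by its log2 fold change with TSZ against DMSO, and each column 1 library, with TSZ+Nec-1s, TSZ, TNFα and DMSO from left to right. Color gives log2(normalised reads + 0.5) minus the row's mean over 12 libraries, clipped at 2 either way, and black squares mark 57 KRAB members. The TSZ columns carry the deepest colors at both ends, and DMSO b differs from DMSO a and c in many rows of the middle.

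With TSZ+Nec-1s against DMSO, 7 members were higher and 3 lower, or 4.9% and 2.1% of members, against 7.17% higher and 5.74% lower of all genes. The 7 were ZNF697 (2.84 ± 0.25), ZNF503 (1.48 ± 0.19), ZNF641 (0.82 ± 0.15), ZNF562 (0.68 ± 0.21), ZNF165 (0.67 ± 0.16), ZNF579 (0.59 ± 0.17) and ZNF706 (0.44 ± 0.09). ZNF503 had 155, 144 and 134 normalised reads in TSZ+Nec-1s libraries, against 46.8, 52.6 and 56.7 in DMSO libraries. The KRAB gene ZNF641 had 168, 179 and 217 in TSZ+Nec-1s libraries, against 101, 120 and 95.1 in DMSO libraries. The calls of ZNF562 (adjusted p = 0.047) and ZNF579 (adjusted p = 0.039) were lost in 9 and 7 of the fits that left out 1 library (adjusted p up to 0.22 and 0.18). That of ZNF165 was lost without DMSO a, TSZ+Nec-1s a or TSZ+Nec-1s b (adjusted p up to 0.078).

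The 3 that fell were ZNF488 (-1.20 ± 0.17), ZNF395 (-1.01 ± 0.16) and ZNF318 (-0.50 ± 0.13), the last lost without DMSO a or any 1 of the TSZ+Nec-1s libraries (adjusted p up to 0.10). ZNF395 had 75.9, 86.8 and 90.5 normalised reads in TSZ+Nec-1s libraries, against 183, 145 and 182 in DMSO libraries. ZNF488 had 101, 132 and 99.6, against 246, 220 and 306. The count in this comparison turned on DMSO b: without it 26 members were higher and 7 lower, and of all genes 19% were higher and 14.4% lower. ZNF146, made up mostly of fingers, shows the pattern, with 2326, 2090 and 2124 normalised reads in TSZ+Nec-1s libraries, against 1018, 2377 and 760 in DMSO a, b and c (0.83 ± 0.37, adjusted p = 0.18). With GC trends removed the count was 27 higher and 11 lower (18.9% and 7.69% of members), against 15.9% and 12.8% of all genes. Without DMSO b, TNFα a and TSZ a it was 40 higher and 21 lower (28% and 14.7%), against 26.9% and 23% of all genes. The shares of all genes called thus grew in the same settings.

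TNFα alone moved few members. With TNFα against DMSO, 2 were higher and 1 lower, or 1.4% and 0.7% of members, against 3.13% higher and 1.08% lower of all genes. An unadjusted p under 0.05 (limma) was seen in 18 members, and the share of all genes under that limit is not given here. ZNF697 had 127, 115 and 114 normalised reads in TNFα libraries, against 26.1, 59.9 and 36.3 in DMSO libraries (1.64 ± 0.26, adjusted p = 0.0023), the only 1 of these calls kept in every fit that left out 1 library. ZNF503 had 83.2, 90.5 and 110, against 46.8, 52.6 and 56.7 (0.85 ± 0.20, adjusted p = 0.031), and ZNF488 had 134, 144 and 173, against 246, 220 and 306 (-0.77 ± 0.16, adjusted p = 0.016). Neither gene's groups overlapped, though the call of ZNF503 was lost in 6 fits that left out 1 library, each DMSO library among them (adjusted p up to 0.14), and that of ZNF488 without DMSO a, TNFα a or TNFα b (adjusted p up to 0.084). Over the 143 members, 23 had all TNFα libraries above all DMSO libraries and 7 had them all below. The share of all genes without overlap is not given here, so this split is no result about the members. ZNF697 and ZNF503 averaged under 100 in DMSO libraries and entered the set through treated groups. Among the 137 members with a DMSO mean of at least 100, 0 were higher and 1 lower. With GC trends removed, 11 members were higher and 3 lower (7.69% and 2.1%), against 8.53% and 5.31% of all genes.

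The remaining comparison asked what TSZ adds to TNFα. With TSZ against TNFα, 29 members were higher and 40 lower, or 20.3% and 28.0% of members, against 22.8% higher and 21.6% lower of all genes, with 54 of 69 calls kept in every fit that left out 1 library. With scaling to total reads, which moved the median of all genes to -0.33, 20 were higher and 73 lower (of all genes, 12.7% and 42.4%). ZNF165 (2.48 ± 0.14), ZNF267 (2.01 ± 0.44), ZNF697 (1.92 ± 0.19) and ZNF513 (1.69 ± 0.12) led the rises, and ZNF292 (1.38 ± 0.36) and ZNF212 (1.34 ± 0.14) came next. ZNF697 had 551, 400 and 411 normalised reads in TSZ libraries, against 127, 115 and 114 in TNFα libraries. ZNF689 (-1.68 ± 0.16), ZNF589 (-1.63 ± 0.21), ZNF488 (-1.60 ± 0.22), ZNF331 (-1.52 ± 0.16), ZNF275 (-1.32 ± 0.12) and ZNF346 (-1.25 ± 0.21) led the falls. ZNF689 had 63.2, 80.1 and 77.4 in TSZ libraries, against 225, 243 and 240 in TNFα libraries. Among KRAB members 8 were higher and 22 lower, and among the others 21 were higher and 18 lower.

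Over the 5 comparisons, ZNF697 and ZNF488 passed the test in all, and 51 members passed in none. The matching shares of all genes are not given here, so these counts have no background beside them. ZNF697 was highest in TSZ libraries, followed by TSZ+Nec-1s, TNFα and DMSO libraries, with no overlap between neighbours. ZNF488 ran in the opposite order, lowest in TSZ libraries and highest in DMSO libraries, and its TSZ+Nec-1s libraries (99.6 to 132) lay just below its TNFα libraries (134 to 173).

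A list of 25 genes, all tested, joined TRIM28 and SETDB1 to other chromatin genes tied to silencing more generally. They are called partners here, and a role in KRAB silencing was not tested for any of them. With TSZ against DMSO, 15 of them were lower and none higher (median -0.36), against 24.2% lower and 26% higher of all genes tested. UHRF1, which brings DNMT1 to replicated DNA, was at -1.42 ± 0.11, the H3K9 methyltransferase genes SUV39H1 and EHMT2 were at -1.36 ± 0.18 and -1.32 ± 0.14, and MPHOSPH8, a part of the HUSH complex, was at -0.95 ± 0.09. SETDB1 averaged 278 ± 33.5 normalised reads in TSZ and 408 ± 55.8 in DMSO libraries (-0.56 ± 0.13, adjusted p = 0.0037). TRIM28, the direct partner of the KRAB box, averaged 10623 ± 1378 in TSZ and 10155 ± 2029 in DMSO libraries (0.08 ± 0.14, adjusted p = 0.67). With TSZ+Nec-1s against TSZ, 15 partners were higher and MTA1 alone was lower (median 0.49), against 19.8% higher and 22.7% lower of all genes. With TSZ+Nec-1s against DMSO, 2 were lower and none higher (of all genes, 5.74% and 7.17%), and with TSZ against TNFα 13 were lower and none higher (21.6% and 22.8%). With TNFα against DMSO none passed, where 1.08% of all genes were lower and 3.13% higher.

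Zinc finger genes outside the rule are given for comparison. With TSZ against DMSO, 51 of the 143 tested ZNF genes at means under 100 were lower and 6 higher (median -0.64), and of 53 other C2H2 genes at means of at least 100 (ZNF with fewer digits, ZFP, ZBTB, ZSCAN and ZKSCAN) 21 were lower and 11 higher (median -0.17). These were 35.7% lower and 4.2% higher of the first set, and 39.6% and 20.8% of the second. The first set shares genes with the 158 other KRAB genes above and is no separate repeat of their counts. Over all genes tested, 24.2% were lower and 26% higher. Among the 110 members whose 4 group means were all at least 100, 24 were lower and 31 higher (median 0.03). These shares, 21.8% and 28.2%, were close to those of all genes. Removing members with a low mean in any group removes genes that fell, so these counts are not set against each other by a test.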

How the data were processed

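RNA from 12 HT-29 libraries (3 in each of 4 groups) was sequenced as polyA libraries with single-end reads. Per the study's methods, the authors aligned reads with STAR 2.3.0e to hg38, counted them per gene with HTSeq 0.5.4e without strand and under the strict intersection mode, and the authors normalised the counts with DESeq. The labels and the methods name different RNA and library kits. The 6 deposited tables hold, for each of 26485 genes, group means of size-factor scaled counts, a signal with no library of its own, together with fold changes and p-values of the authors' comparisons, which were not used.

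Each mean of 3 scaled libraries is a sum of whole reads times 3 steps, so reads per library were solved exactly for all but 22 genes, and depth follows from the steps (8781228 to 12731837 reads). Size factors recomputed from the solved reads were within a relative 0.0007152 of the deposited scaling. Normalised reads are these reads over the size factor. limma 3.58.1 (R 4.3.3) with voom weights was run on the solved reads, all 4 groups in 1 fit, for 11736 genes averaging 10 or more, with a prior count of 0.5 and Benjamini-Hochberg adjustment at 0.05. Steps were tested on simulated data. Gene positions, transcripts and translated proteins came from GENCODE 44, with KRAB and SCAN boxes found by HMMER 3.4 profiles (E-value 1e-05). RefSeq proteins had been planned for this step and were not used here. Figures were drawn with matplotlib 3.10.9.

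The text names, for each comparison, the 6 called members that rose most and the 6 that fell most, a list of characterised members, the 3 highest and those next to the level threshold. Members, lists and this rule were chosen with earlier results of these data known. Alternatives were other scalings, filters and weights, GC trends removed, 2 groups at a time, each library left out, and stricter thresholds. Groups came from the labels.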

Additional observations from a re-analysis of the deposited data

How the results depend on the processing

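Scaling to total reads gave 20 members higher and 77 lower with TSZ against DMSO (35 and 42 as reported), 80 higher and 12 lower with TSZ+Nec-1s against TSZ (42 and 27), and 73 lower with TSZ against TNFα (40). It also gave 8 lower with TSZ+Nec-1s against DMSO (3), and upper quartile scaling gave 5 there. Of all genes, 11% and 7.71% were lower there under these scalings. Under scaling to total reads ZNF207 turned to -0.37 with TSZ against DMSO and -0.31 with TSZ against TNFα, ZNF622 to -0.28 with TSZ against DMSO and 0.31 with TSZ+Nec-1s against TSZ, ZNF410 to 0.32 with TSZ+Nec-1s against TSZ and ZNF687 to -0.34 with TSZ against TNFα, none of which had passed the test as reported.

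Removing each library's GC trend gave 11 higher and 3 lower with TNFα against DMSO (2 and 1 as reported) and 27 higher and 11 lower with TSZ+Nec-1s against DMSO (7 and 3). Leaving out DMSO b, TNFα a and TSZ a, a choice made after seeing the data, gave 10 higher and 2 lower with TNFα against DMSO, 40 higher and 21 lower with TSZ+Nec-1s against DMSO, and 41 lower with TSZ+Nec-1s against TSZ (27). Of all genes, that choice gave 7.11% higher and 4.01% lower with TNFα against DMSO, and 32% lower with TSZ+Nec-1s against TSZ. Fitting only the 2 groups compared gave 1 higher and 0 lower with TNFα against DMSO and 4 higher with TSZ+Nec-1s against DMSO, with fewer libraries behind the spread. Of all genes, 1.76% were higher and 0.222% lower with TNFα, and 5.11% higher with TSZ+Nec-1s, in those fits. A fold change over 1.5 left 16 lower with TSZ+Nec-1s against TSZ. At a mean of at least 200, which keeps 88 members, 1 was higher and 0 lower with TNFα against DMSO, 19 lower with TSZ against DMSO, 4 higher and 1 lower with TSZ+Nec-1s against DMSO, 18 higher with TSZ+Nec-1s against TSZ and 17 lower with TSZ against TNFα. Shares of all genes at these stricter thresholds are not given here, so these counts have no background beside them.

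Leaving out 1 library at a time gave 1 to 3 higher and 0 to 2 lower with TNFα against DMSO, 33 to 38 higher and 36 to 43 lower with TSZ against DMSO, 4 to 26 higher and 2 to 7 lower with TSZ+Nec-1s against DMSO, 29 to 54 higher and 19 to 35 lower with TSZ+Nec-1s against TSZ, and 23 to 33 higher and 33 to 49 lower with TSZ against TNFα. Shares of all genes moved in the same fits. With TNFα against DMSO they were 2.07% to 3.69% higher and 0.358% to 1.83% lower. With TSZ against DMSO they were 23.1% to 28.8% and 20.4% to 26.7%. With TSZ+Nec-1s they were 4.71% to 19% and 2.66% to 14.4% against DMSO, and 15% to 25.3% and 18.3% to 26.7% against TSZ. With TSZ against TNFα they were 19.1% to 28% and 17.9% to 25.6%. Over all settings, the log2 fold changes of named members kept their side of the threshold and direction in 4732 of 5035 values, gained a call in 177 and lost one in 120. The cause of these shifts was not tested. No paired analysis was possible because the deposited columns are group means, and the libraries solved from them carry no replicate number. Depth limits members near a mean of 100 most, and how much of the spread between libraries is counting error was not tested.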
